A study of Danio rerio with 48 samples.

Results

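The pentraxin genes *apcs* and *crp* of the zebrafish were followed across 7 mutants of the SMN complex, each against its wild-type control. Members were all genes whose symbol is *apcs* or *crp* with or without a number. Of 9 such symbols in the gene tables, 7 had an identifier among the 34707 genes of the RNA-Seq files: *apcs* (ENSDARG00000045089), *crp1* (ENSDARG00000071454), *crp2* (ENSDARG00000056462), *crp3* (ENSDARG00000042613), *crp5* (ENSDARG00000056498), *crp6* (ENSDARG00000071457) and *crp7* (ENSDARG00000071456). The symbols *crp* and *crp4* were matched to no identifier and were not analysed here, and the study's own table lists the *crp5* identifier under the name *crp*. The family was selected on its measured mRNA levels in these mutants against their controls, so those levels and fold changes are given as a description, as are the counts of members called further on, and nothing is read from a test of them.

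Pentraxins are secreted proteins that assemble into rings of identical subunits and bind their ligands with calcium. In mammals they are made mainly by hepatocytes. C-reactive protein binds phosphocholine on microbes and damaged cells and, in mammals, recruits C1q to start the classical complement pathway, and serum amyloid P component, the product of *APCS*, is its close relative. In humans *CRP* is a major acute-phase gene, induced in the liver by interleukin 6 through STAT3 and C/EBP factors, whereas in mice serum amyloid P has that part.

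The SMN complex assembles the small nuclear ribonucleoproteins used in splicing, and the study asked which of its members are needed for hair cell regeneration. RNA was taken from pools of whole larvae at 7 dpf, all on the TAB-5 background. All larvae, mutant and wild type, had been exposed to copper sulfate, which kills lateral line hair cells, and had been genotyped from a fin biopsy. Larvae came from crosses of a single heterozygous pair. It is not stated if each of the 3 libraries of a group had its own cross, and the tests measure only the spread between libraries. The regeneration mutants were homozygous for *smn1* fh229, *gemin3* hg105 or *gemin5* hg80, and each was compared with 3 libraries of its own wild-type siblings. The non-regeneration mutants were homozygous for *gemin2* hg108, *gemin4* hg109, *gemin6* hg110 or *gemin7* hg111. These 4 mutants shared 1 control of 3 wild-type libraries, to which the *gemin4*, *gemin6* and *gemin7* families gave 1 library each. No sibling of *gemin2* mutants was among them. There were 3 libraries in each of the 11 groups, 33 in all.

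Library totals ran from 30045993 to 60650366 expected counts, and from 61452820 to 88871247 in the *gemin3* family, whose mutants and siblings alike were sequenced on another instrument with longer reads. The mRNA of the mutated gene lay below all control libraries in *gemin2*, *gemin3*, *gemin5* and *gemin7* mutants, at 28.5% to 63.1% of the control mean, and overlapped the control in *smn1*, *gemin4* and *gemin6* mutants, at 94.6% to 99.5%, where it does not check the labels. Markers of hepatocytes, enterocytes, exocrine pancreas, muscle, lens, skin and neurons were detected in every library. Because whole larvae were sequenced, fewer liver cells and less RNA per cell cannot be told apart.

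Expression levels are given as TPM (a share of all transcripts, corrected for transcript length), so that levels of different genes can be compared. Over the 33 libraries *crp3* was the most abundant member, with a median of 60.8 TPM, followed by *crp5* at 26.3, *crp2* at 11.6, *apcs* at 7.05 and *crp1* at 4.94 TPM. The lowest and highest libraries differed least for *crp1*, from 2.85 to 6.96 TPM, and most for *apcs*, from 0.12 to 67.8 TPM. *crp6* and *crp7* were barely detected. They reached at most 6 and 3.29 expected counts in a library, were at 0 in 16 and 8 libraries, and were removed by the filter on low counts in every comparison, so 5 of the 7 members were fitted. A filter that keeps a gene through the group in which it is high favours genes that differ, so the 5 fitted genes do not stand for the family as a whole.

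In the RefSeq annotation (assembly GRCz12tu, used only for gene order because the files use GRCz10), *crp1*, *crp2*, *crp3*, *crp4* and *crp5* follow each other on 1 chromosome. *crp6* and *crp7* lie next to each other on the same chromosome, and *apcs* lies on another. All of them except *crp1* lie within the span of another gene in that annotation: *crp2* to *crp6* within that of *crp1*, *crp6* and *crp7* within that of *mybpc2b*, and *apcs* within that of *gfra1a*. Whether the counting used strand is not given in the sources used here, and whether reads of a surrounding gene were counted for a member was not tested. Reads shared among such near neighbours are divided by RSEM, and the error of that division was read from the posterior SD in the files. It was 0 for *apcs* and *crp1* in all 33 libraries and at most 0.236% of the count for *crp5* and 0.932% for *crp3*. For *crp2* it had a median of 2.74% and a maximum of 8.79% of the count.

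**Figure D1:**
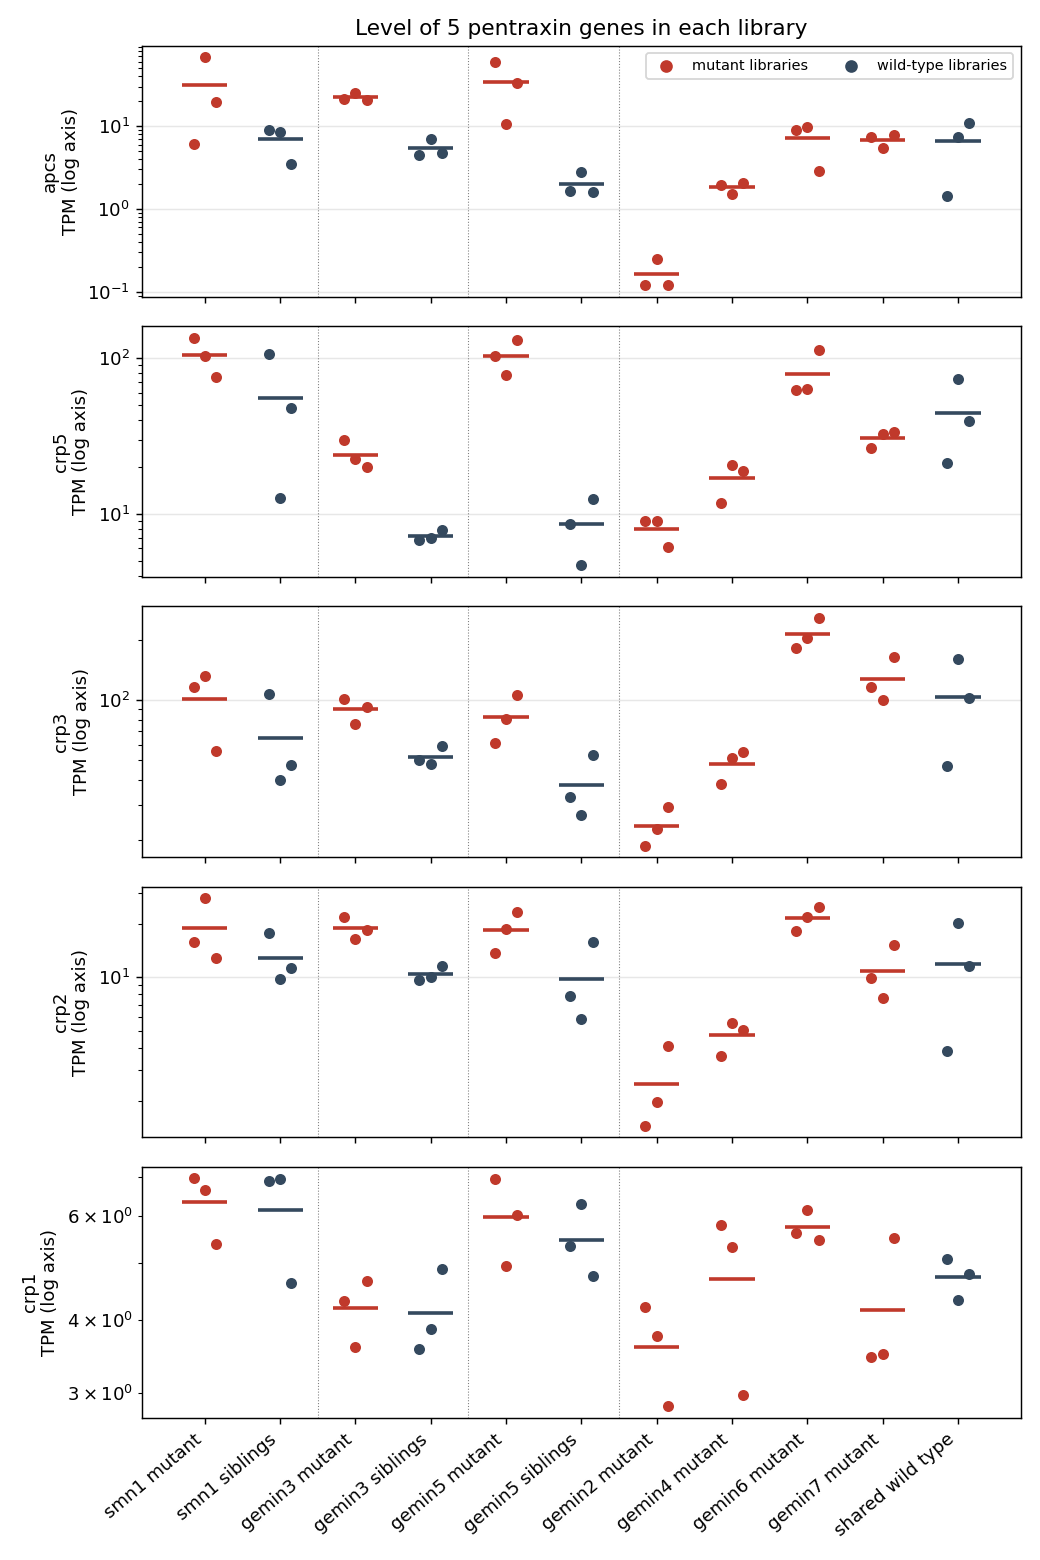
Each panel shows 1 gene, with TPM on a log axis and the 11 groups side by side, each mutant left of its control (the shared wild type stands right of the 4 mutants that use it). Points are the 3 libraries of a group and bars are their means. *apcs* runs from 0.12 TPM in *gemin2* mutants to 67.8 TPM in an *smn1* mutant library, whereas *crp1* stays between 2.85 and 6.96 TPM.

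*apcs*, which encodes serum amyloid P component, was higher in *gemin5* mutants than in their siblings. It stood at 59.8, 10.7 and 33.3 TPM in *gemin5* mutants, against 1.65, 2.79 and 1.60 TPM in their siblings. All 3 mutant libraries lay above all 3 sibling libraries, and the log2 fold change was 4.06 (SE 0.66), a 16.7-fold difference, and 3.36 without mutant library 1. In *gemin3* mutants *apcs* stood at 21.2, 25.1 and 20.8 TPM, against 4.46, 7.05 and 4.75 TPM in siblings. These groups did not overlap either, and the log2 fold change was 1.96 (SE 0.19), or 3.90-fold. The *smn1* mutants were the most uneven, with 6.16, 67.8 and 19.7 TPM in mutants, against 8.92, 8.40 and 3.49 TPM in siblings. Mutant library 1 lay below siblings 1 and 2 and mutant library 2 was the highest of all 33, so the groups overlapped, and the log2 fold change of 2.17 (SE 0.78) was 1.02 without mutant library 2.

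In *gemin2* mutants *apcs* was almost absent, at 0.12, 0.25 and 0.12 TPM, against 1.43, 7.43 and 10.99 TPM in the shared wild-type libraries. These levels rest on 2, 5 and 3 counts in the mutants, a sum of 10 with an exact Poisson 95% interval of 4.80 to 18.4, against a sum of 516 (472 to 563) in the control, where the intervals cover counting error only. The groups did not overlap, and the log2 fold change was -5.19 (SE 0.84), which is 36.4-fold lower. *gemin4* mutants had 1.96, 1.51 and 2.08 TPM, *gemin6* mutants 8.98, 9.80 and 2.89 TPM, and *gemin7* mutants 7.35, 5.47 and 7.73 TPM of *apcs*. Against the same control their log2 fold changes were -1.71 (SE 0.61), 0.03 (SE 0.69) and 0.08 (SE 0.55), and all 3 overlapped it. Without shared wild-type library 3 the log2 fold changes of *apcs* were -4.52 in *gemin2*, -1.04 in *gemin4*, 0.71 in *gemin6* and 0.74 in *gemin7* mutants.

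*crp5* is one of the C-reactive protein copies, and the ligands of the single zebrafish copies are not described here. It differed most between *gemin5* mutants, at 103.6, 77.7 and 130.3 TPM, and their siblings, at 8.65, 4.65 and 12.5 TPM. The lowest mutant library was above the highest sibling library, with a log2 fold change of 3.53 (SE 0.35), or 11.5-fold. *gemin3* mutants had 29.7, 22.6 and 19.9 TPM, against 6.81, 6.94 and 7.90 TPM in siblings, again without overlap, and a log2 fold change of 1.66 (SE 0.17). In *smn1* mutants *crp5* stood at 136.0, 103.8 and 76.0 TPM, against 105.9, 12.7 and 48.0 TPM in siblings. Sibling library 1 reached the mutant range, and the log2 fold change of 0.96 (SE 0.62) was 1.82 without it and 0.49 without sibling library 2.

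In *gemin2* mutants *crp5* had 9.04, 8.96 and 6.12 TPM, against 21.2, 73.5 and 39.4 TPM in the shared wild type, with a log2 fold change of -2.34 (SE 0.38), or 5.05-fold lower. *gemin4* mutants had 11.7, 20.7 and 18.8 TPM, all below the lowest control library by a narrow margin, with a log2 fold change of -1.20 (SE 0.40). *gemin6* mutants had 63.0, 63.5 and 113.1 TPM and *gemin7* mutants 26.3, 32.4 and 33.5 TPM of *crp5*. Both overlapped the control, at log2 fold changes of 0.74 (SE 0.38) and -0.46 (SE 0.34).

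*crp3*, the most abundant copy, differed less. It stood at 60.8, 80.7 and 105.9 TPM in *gemin5* mutants, against 32.8, 26.7 and 53.2 TPM in siblings, and at 101.5, 76.5 and 92.4 TPM in *gemin3* mutants, against 50.0, 48.0 and 58.9 TPM in siblings. Neither pair of groups overlapped, and the log2 fold changes were 1.06 (SE 0.28) and 0.71 (SE 0.12). *smn1* mutants had 117.0, 132.1 and 55.6 TPM, against 107.2, 39.8 and 47.6 TPM in siblings, which overlapped at a log2 fold change of 0.67 (SE 0.41). *gemin2* mutants had 18.7, 22.8 and 29.1 TPM of *crp3*, all below the shared wild-type libraries at 47.0, 161.8 and 102.6 TPM (log2 fold change -1.97, SE 0.39). In *gemin6* mutants the order was the opposite, with 182.8, 204.7 and 259.1 TPM, all above that control (log2 fold change 0.96, SE 0.35). *gemin4* mutants averaged 48.0 ± 8.95 TPM and *gemin7* mutants 127.2 ± 33.5 TPM, against 103.8 ± 57.4 TPM in the shared wild type (SD, n = 3 each), and both overlapped it.

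*crp2* was less abundant than *crp3*. *gemin3* mutants had 21.8, 16.4 and 18.5 TPM, against 9.59, 10.1 and 11.6 TPM in siblings, without overlap (log2 fold change 0.78, SE 0.14). In *gemin5* mutants it averaged 18.5 ± 4.75 TPM, against 9.81 ± 5.33 TPM in siblings, and in *smn1* mutants 18.8 ± 8.01 TPM, against 12.9 ± 4.19 TPM in siblings (SD, n = 3 each), with overlap in both. *gemin2* mutants had 1.45, 1.97 and 4.09 TPM, against 3.82, 20.3 and 11.6 TPM in the shared wild type, and the mutant library at 4.09 TPM just overlapped the lowest control. The log2 fold change was -2.02 (SE 0.60), and -2.71 without the mutant library at 4.09 TPM. In *gemin4*, *gemin6* and *gemin7* mutants it was -1.12 (SE 0.49), 0.78 (SE 0.45) and -0.05 (SE 0.48), with overlap in each. In *gemin7* mutants *crp3* had the opposite sign, at 0.36 (SE 0.36).

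*crp1* was nearly level throughout. Its 7 log2 fold changes ran from -0.27 (SE 0.18) in *gemin2* mutants to 0.19 (SE 0.17) in *gemin6* mutants. These were also the only contrasts in which the *crp1* libraries did not overlap, at 3.60 ± 0.69 TPM in *gemin2* mutants and 5.74 ± 0.35 TPM in *gemin6* mutants, against 4.73 ± 0.38 TPM in the shared wild type (SD, n = 3 each).

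**Figure D2:**
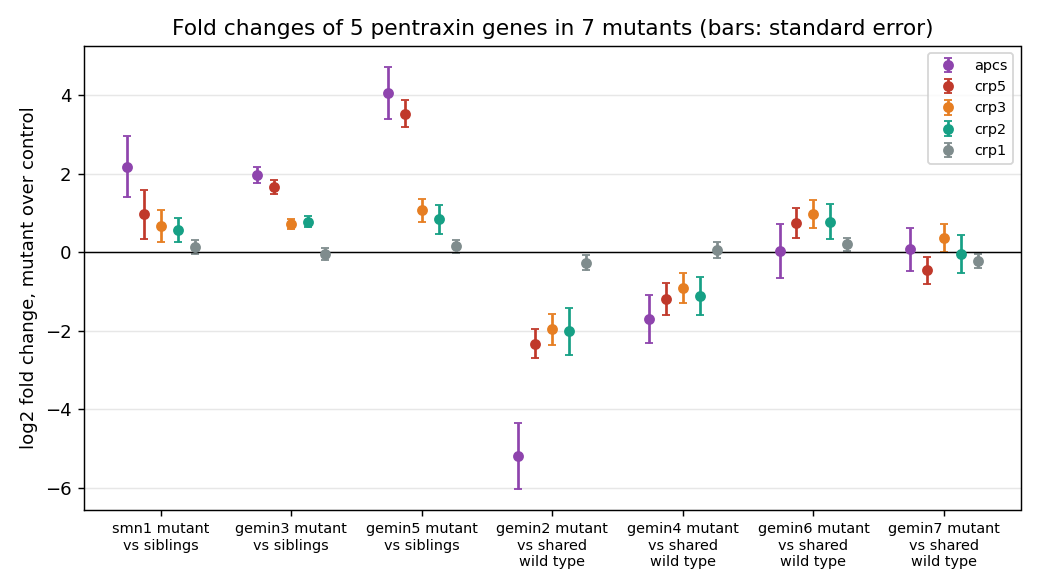
Log2 fold changes (mutant over control) of the 5 fitted members in the 7 mutants from edgeR, with bars of 1 standard error. *apcs* spans from -5.19 in *gemin2* mutants to 4.06 in *gemin5* mutants, and *crp1* lies within 0.27 of 0 in every mutant.

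Ranked by group mean, *apcs* was highest in *gemin5*, *smn1* and *gemin3* mutants, at 34.6 ± 24.6, 31.2 ± 32.4 and 22.4 ± 2.36 TPM, which overlapped each other. The next group, the *gemin6* mutants at 7.22 ± 3.78 TPM, did not reach the *gemin3* mutants, and the *gemin2* mutants at 0.163 ± 0.075 TPM lay below all others (SD, n = 3 each). However, *smn1* mutant library 1, at 6.16 TPM, lay within the *gemin6* mutant range of 2.89 to 9.80 TPM. *gemin5* mutant library 2, at 10.68 TPM, lay below shared wild-type library 3, at 10.99 TPM. Of the 10 neighbouring pairs of groups in the order of means, 7 overlapped for *apcs*, 9 for *crp2* and *crp3*, and all 10 for *crp1* and *crp5*. The highest group was the *smn1* mutants for *crp5* (105.3 ± 30.0 TPM) but the *gemin6* mutants for *crp3* (215.5 ± 39.3 TPM) and *crp2* (21.6 ± 3.21 TPM). The ratio of *crp5* to *crp3* was 1.30 ± 0.38 in *gemin5* mutants, against 0.224 ± 0.046 in their siblings. In *gemin3* mutants it was 0.267 ± 0.045, against 0.138 ± 0.0056 in siblings (SD, n = 3 each), so these copies did not move by the same factor in *gemin5* and *gemin3* mutants. The ratio overlapped the control in *smn1*, *gemin2*, *gemin4* and *gemin6* mutants. In *gemin7* mutants it lay below the control, at 0.251 ± 0.063, against 0.430 ± 0.040 in the shared wild type (SD, n = 3 each).

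A gene was counted as called where the p of edgeR's quasi-likelihood test, adjusted by Benjamini-Hochberg over every gene tested, was below 0.05. In *gemin3* mutants 3 of the 5 fitted members were called and higher (*apcs*, *crp3* and *crp5*), where 0.57% of all 24229 genes were called and higher. In *gemin5* mutants 2 were called and higher (*apcs* and *crp5*), where 0.593% of all genes were. In *gemin2* mutants 3 were called and lower (*apcs*, *crp3* and *crp5*), where 3.11% of all genes were. No member was called in *smn1*, *gemin4*, *gemin6* or *gemin7* mutants, by edgeR or by DESeq2, where edgeR called 0.0921%, 0.0173%, 0.0% and 0.0% of all genes in either direction. In *gemin6* and *gemin7* mutants edgeR thus called 0 genes, and DESeq2 called 22 and 61. Of 23182 and 23195 genes tested by edgeR, 855 and 1908 had an unadjusted p below 0.05. A share of 0.05 is expected there if no gene differs. These contrasts were used to choose the family, so nothing is read from the members' counts.

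The replicate numbers of the labels paired the libraries in the *smn1*, *gemin3* and *gemin5* families. With the replicate number as a block, 4 members were called in *gemin3* mutants, with *crp2* added, and 4 in *gemin5* mutants, with *crp2* and *crp3* added. Over all genes the block raised the calls from 237 to 480 in *gemin3* mutants and from 205 to 1700 in *gemin5* mutants. In 1 fit of all 33 libraries, which share 1 estimate of the spread, 0 members were called in *gemin3* mutants, with an *apcs* log2 fold change of 1.97. That fit called 229 of 24535 genes in *gemin3* mutants. The 2 calls in *gemin5* mutants fell to 0 without sibling library 1 and to 1 without sibling library 2 or 3 or mutant library 1 or 3. The 3 calls in *gemin2* mutants fell to 0 without mutant library 2 or 3. Calls over all genes fell too, from 205 to 30 in *gemin5* mutants without sibling library 1. In *gemin2* mutants they fell from 1249 to 324 and 806 without mutant library 2 and 3.

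Groups that did not overlap were more common. All 3 mutant libraries lay above all 3 sibling libraries for 4 members in *gemin3* mutants, against 17.0% of all genes, and for 3 in *gemin5* mutants, against 13.6%. They lay below the control for 4 members in *gemin2* mutants, against 19.6% of all genes, and for 1 in *gemin4* mutants, against 7.97%. In *gemin6* mutants 2 members lay above the control, against 5.54%. No member was separated from its control in *smn1* mutants, where 3.36% of all genes lay above and 8.13% below, or in *gemin7* mutants, where 3.99% lay above and 8.83% below. The median log2 fold change of the 5 members came to 0.67 for *smn1*, 0.78 for *gemin3* and 1.06 for *gemin5* mutants, and -2.02, -1.12, 0.74 and -0.05 in *gemin2*, *gemin4*, *gemin6* and *gemin7* mutants, while the median over all genes tested lay between -0.01 and 0.01 in all 7.

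The series set the regeneration mutants against the non-regeneration mutants. For *apcs* the mean log2 fold change was 2.73 over *smn1*, *gemin3* and *gemin5* mutants and -1.70 over the other 4, a difference of 4.43. The difference was 2.86 for *crp5*, 1.33 for *crp2*, 1.20 for *crp3* and 0.13 for *crp1*. The standard error of these differences, taken from the spread among the mutants, was 1.40 for *apcs* and 1.00 for *crp5*. It was 0.62 for *crp2*, 0.67 for *crp3* and 0.13 for *crp1*, and it treats the mutants as independent. Without *gemin2* mutants the difference was 3.26 for *apcs*, 2.36 for *crp5*, 0.86 for *crp2*, 0.68 for *crp3* and 0.06 for *crp1*. With the counts of all members summed, so that the division of reads among these members has no bearing, the difference was 1.76. Division with genes outside the sum is not covered, and *crp4* is not in it. *crp3* and *crp5* weigh most in the sum, with medians of 1333 and 701 counts over the 33 libraries. Without *gemin2* mutants the summed difference was 1.27. The 4 non-regeneration mutants share their control libraries, so their values are not independent of each other.

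The 3 libraries of the shared control differed among themselves, and each came from a family of which mutants were also sequenced. The library of the *gemin4* family held the lowest *apcs* (1.43 TPM), *crp5* (21.2 TPM), *crp3* (47.0 TPM) and *crp2* (3.82 TPM) of the 3. Against this single sibling library, the log2 ratios of the *gemin4* mutants were 0.51 for *apcs*, 0.47 for *crp2*, 0.17 for *crp3* and -0.17 for *crp5*. All 3 mutant libraries lay above it for *apcs* and below it for *crp5*. The library of the *gemin6* family held the highest *crp5* (73.5 TPM), *crp3* (161.8 TPM) and *crp2* (20.3 TPM), and against it the *gemin6* mutants had log2 ratios of -0.01 for *apcs*, 0.08 for *crp2*, 0.09 for *crp5* and 0.40 for *crp3*. All 3 *gemin6* mutant libraries lay above that library for *crp3* and *crp1*. In *gemin7* mutants the log2 ratios to their own sibling library were -0.69 for *apcs*, -0.37 for *crp5*, -0.10 for *crp2* and 0.30 for *crp3*. All 3 *gemin7* mutant libraries lay below that library for *apcs* and *crp5*. With 1 sibling library each, these ratios have no replicate check. For *gemin2* mutants no such comparison can be made, and family and genotype cannot be told apart. Their 3 *apcs* levels lay below all 12 wild-type libraries of the series, which reached down to 1.43 TPM, whereas their *crp3* and *crp5* levels overlapped the lowest wild-type libraries, at 26.7 and 4.65 TPM.

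**Figure D3:**
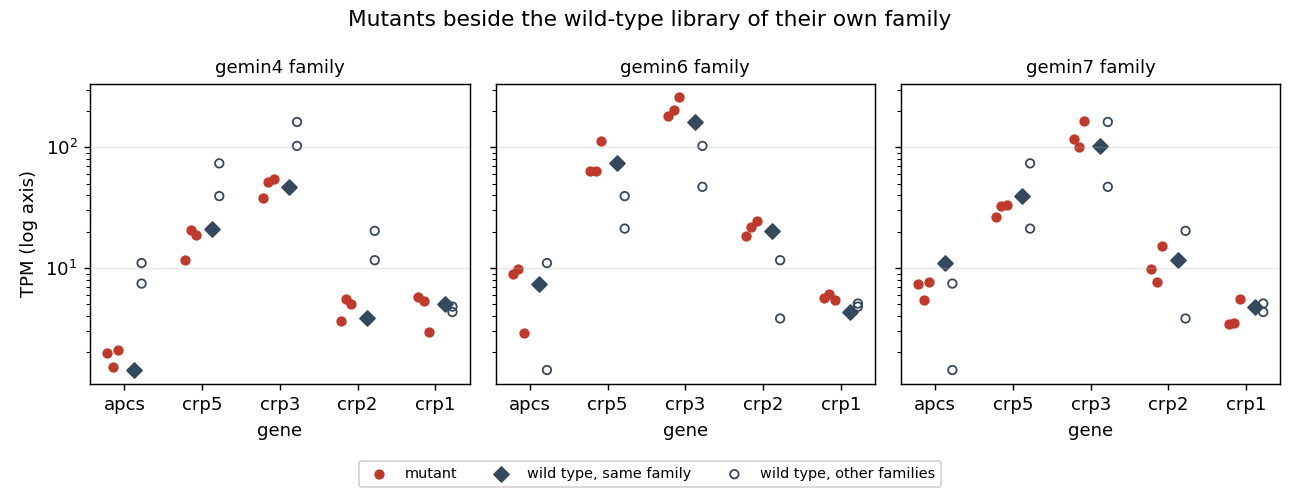
TPM (log axis) of the 5 fitted members in the *gemin4*, *gemin6* and *gemin7* families. Red points are the 3 mutant libraries, the diamond is the wild-type library of the same family and open circles are the wild-type libraries of the other families. In the *gemin4* family the mutants (1.51 to 2.08 TPM of *apcs*) lie close to their own sibling library (1.43 TPM) and below the others (7.43 and 10.99 TPM).

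The wild-type libraries are the controls of the comparisons by which the family was selected, so their levels are likewise given as a description, with no test. Across the 12 wild-type libraries *crp5* ranged from 4.65 to 105.9 TPM, with group means of 55.5 ± 47.1 TPM in *smn1* siblings, 44.7 ± 26.6 TPM in the shared wild type, 8.59 ± 3.91 TPM in *gemin5* siblings and 7.22 ± 0.60 TPM in *gemin3* siblings (SD, n = 3 each). The ratio of the highest to the lowest group mean was 7.69 for *crp5*, 3.45 for *apcs*, 2.76 for *crp3*, 1.499 for *crp1* and 1.31 for *crp2*.

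Libraries of the same group also differed more for 4 of these 5 genes than for most genes. After centring log2(CPM + 1) on each group, the SD over the 33 libraries was 0.72 for *apcs*, larger than for 99.6% of genes with a mean of at least 1 CPM. It was 0.59 for *crp5* (99.0%), 0.47 for *crp3* (97.7%), 0.44 for *crp2* (97.0%) and 0.15 for *crp1* (36.2%), where the median gene had 0.17. Within groups *crp2* and *crp3* moved together, with Pearson's r of 0.92 over the 33 libraries, and *crp3* and *crp5* had r = 0.75. *apcs* was only loosely related to them, with r = 0.17 with *crp3* and 0.02 with *crp5*, and *crp1* had r between -0.28 and -0.18 with the other *crp* genes. These are descriptions, since libraries of a group may share a cross and part of the reads of *crp2* and *crp3* was divided among genes by RSEM. In the *smn1*, *gemin3* and *gemin5* families same-numbered mutant and sibling libraries also deviated together, so the 33 libraries are not independent. The shared wild type joins libraries of the *gemin4*, *gemin6* and *gemin7* families. Differences between those families therefore enter the SDs and every within-group r.

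**Figure D4:**
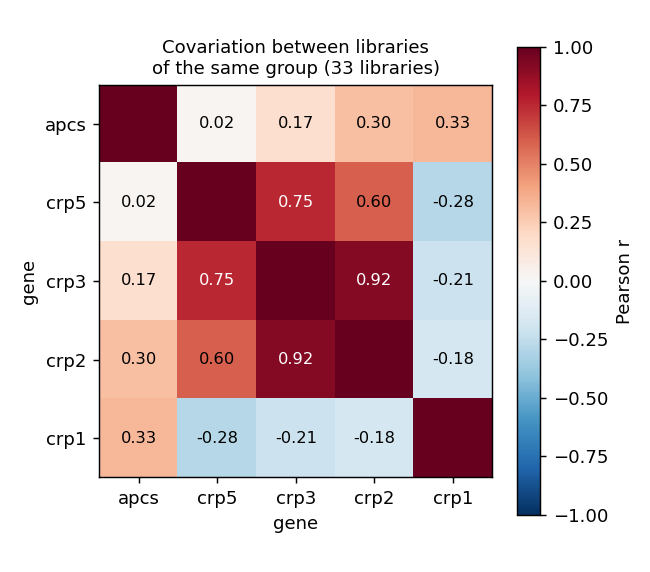
Pearson's r between members over the 33 libraries, computed on log2(CPM + 1) with each group's mean removed (red positive, blue negative). *crp2*, *crp3* and *crp5* form a block with r from 0.60 to 0.92, and *apcs* and *crp5* have r = 0.02.

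Among 20433 other genes, the 5 with the most similar profile within groups to the mean of the members were *c8g* (r = 0.75), *USE1* (0.74), *F7* (0.74), *c8a* (0.73) and *cbln8* (0.70), over 33 libraries, where the median gene had r = -0.01. These 5 were picked as the highest of 20433 values, with 22 degrees of freedom left after centring. How high the top r would reach among unrelated genes was not tested, so no relation is read from the ranking. The mean of the members mostly follows *crp2* (r = 0.86) and *crp3* (0.85), then *crp5* (0.72) and *apcs* (0.61), and hardly *crp1* (0.03). *c8g* and *c8a* encode chains of complement component C8 and *F7* encodes coagulation factor VII, plasma proteins of the liver in mammals. No such statement is made here of *USE1* and *cbln8*. *c8g* and *c8a* were called and higher in *gemin3* mutants, by log2 fold changes of 0.50 (SE 0.08) and 0.41 (SE 0.07). None of these 5 most similar genes was called in another mutant.

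The listed genes that act before, beside or after the pentraxins were tested in the same fits. The lists were chosen with earlier results of these data known. Their calls, adjusted p-values and medians are therefore given as a description. They comprised 26 upstream genes (interleukins, their receptors, STAT3 and C/EBP factors), 12 complement partners, 17 other acute-phase genes, 3 other pentraxins and 8 hepatocyte markers that could be matched. Of the complement partners, 4 rose in *gemin3* mutants and 4 in *gemin5* mutants, 4 fell in *gemin2* mutants and 0 were called in the other 4 mutants, where 6 of 44 tests had an unadjusted p below 0.05 and DESeq2 called 2. *c4b*, a C4 of the classical pathway, rose in *gemin5* mutants to 27.5 ± 10.7 TPM, against 4.82 ± 1.43 TPM in siblings (log2 fold change 2.49, SE 0.33, adjusted p = 0.023). It rose in *gemin3* mutants to 24.2 ± 2.61 TPM, against 10.97 ± 1.85 TPM in siblings (1.09, SE 0.12, adjusted p = 0.0082), and fell in *gemin2* mutants to 4.83 ± 1.61 TPM, against 16.02 ± 5.32 TPM in the shared wild type (-1.59, SE 0.32, adjusted p = 0.027; SD, n = 3 each).

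*cfb*, factor B of the alternative pathway, changed in the same 3 mutants. Its log2 fold changes were 1.84 (SE 0.24, adjusted p = 0.022) in *gemin5* mutants, 1.02 (SE 0.14, adjusted p = 0.018) in *gemin3* mutants and -1.04 (SE 0.21, adjusted p = 0.027) in *gemin2* mutants. *c4* and *cfh*, the complement regulator factor H, rose in *gemin3* and *gemin5* mutants, and *c3a.1* (C3) and *masp2*, a protease of the lectin pathway, fell in *gemin2* mutants by 1.29 and 0.92 on the log2 scale. *c1qa*, a chain of the C1q that binds C-reactive protein in mammals, was low, between 0.28 and 1.33 TPM in group means, was removed by the filter in *gemin5* mutants and was called in no other mutant. The median log2 fold change of the tested partners was 0.80 in *gemin3* mutants, 1.22 in *gemin5* mutants and -0.68 in *gemin2* mutants, while that of all genes was within 0.01 of 0.

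Of the other acute-phase genes, *c9* and *cp* were called in 3 mutants. *c9*, which forms the pore of the membrane attack complex, rose to 148.3 ± 13.8 TPM in *gemin5* mutants, against 43.8 ± 10.9 TPM in siblings, and to 245.2 ± 13.2 TPM in *gemin3* mutants, against 121.3 ± 7.08 TPM in siblings. It fell to 57.7 ± 0.41 TPM in *gemin2* mutants, against 144.4 ± 18.9 TPM in the shared wild type (SD, n = 3 each; adjusted p = 0.016, 0.0040 and 0.0022). *cp*, the copper carrier ceruloplasmin, rose by 1.14 (SE 0.18) and 0.74 (SE 0.10) on the log2 scale in *gemin5* and *gemin3* mutants and fell by 1.94 (SE 0.27) in *gemin2* mutants. *hp* (haptoglobin), *hpxb* (hemopexin) and *itih3a* fell in *gemin2* mutants alone among the calls, by 3.15, 1.28 and 0.56 on the log2 scale, and whether that differs from the other mutants was not tested. *hamp*, which encodes hepcidin, was called in no mutant. Of the other pentraxins, *ptx4*, *nptxra* and *nptxrb*, 0 were called in any of the 7 mutants by edgeR or by DESeq2, and 4 of 17 tests had an unadjusted p below 0.05 in edgeR.

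Upstream of the pentraxins, *il6st*, which encodes the gp130 receptor shared by interleukins 6 and 11, rose in *gemin5* mutants by 0.68 (SE 0.08, adjusted p = 0.017) and in *gemin3* mutants by 0.58 (SE 0.09, adjusted p = 0.025) on the log2 scale. The gp130 ligands *il11a* and *il11b* rose in *gemin3* mutants. *il11b* stood at 1.52 ± 0.26 TPM in *gemin3* mutants, against 0.077 ± 0.012 TPM in siblings (SD, n = 3 each; log2 fold change 4.43, SE 0.28, adjusted p = 0.00080), and *il11a* had a log2 fold change of 1.37 (SE 0.23, adjusted p = 0.043). In *gemin5* mutants the values were 2.29 (SE 0.46, adjusted p = 0.080) and 1.33 (SE 0.24, adjusted p = 0.055), and in *smn1* mutants 3.09 (SE 0.63, adjusted p = 0.27) and 1.26 (SE 0.59, adjusted p = 0.88), none past the threshold. The *il11b* level of 0.077 TPM in *gemin3* siblings is very low, so the size of the fold change in *gemin3* mutants is uncertain. *il6* itself was at most 0.377 TPM in any group mean and was removed by the filter in all 7 comparisons. *stat3* had log2 fold changes of 0.75 in *gemin5* mutants, 0.58 in *gemin3* mutants and 0.44 in *smn1* mutants, without passing the threshold (adjusted p = 0.11, 0.053 and 0.93). All these upstream values come from fits that leave out the pairing by replicate number. With that number as a block, 32, 14 and 7 listed genes were called in *gemin5*, *gemin3* and *smn1* mutants, among 1700, 480 and 350 genes in all. *cebpd*, a C/EBP factor, was the only upstream gene called in *gemin2* mutants, where it rose by 0.56 (SE 0.11, adjusted p = 0.029) on the log2 scale. Whether any of these upstream genes acts on the pentraxins in these larvae was not tested.

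**Figure D5:**
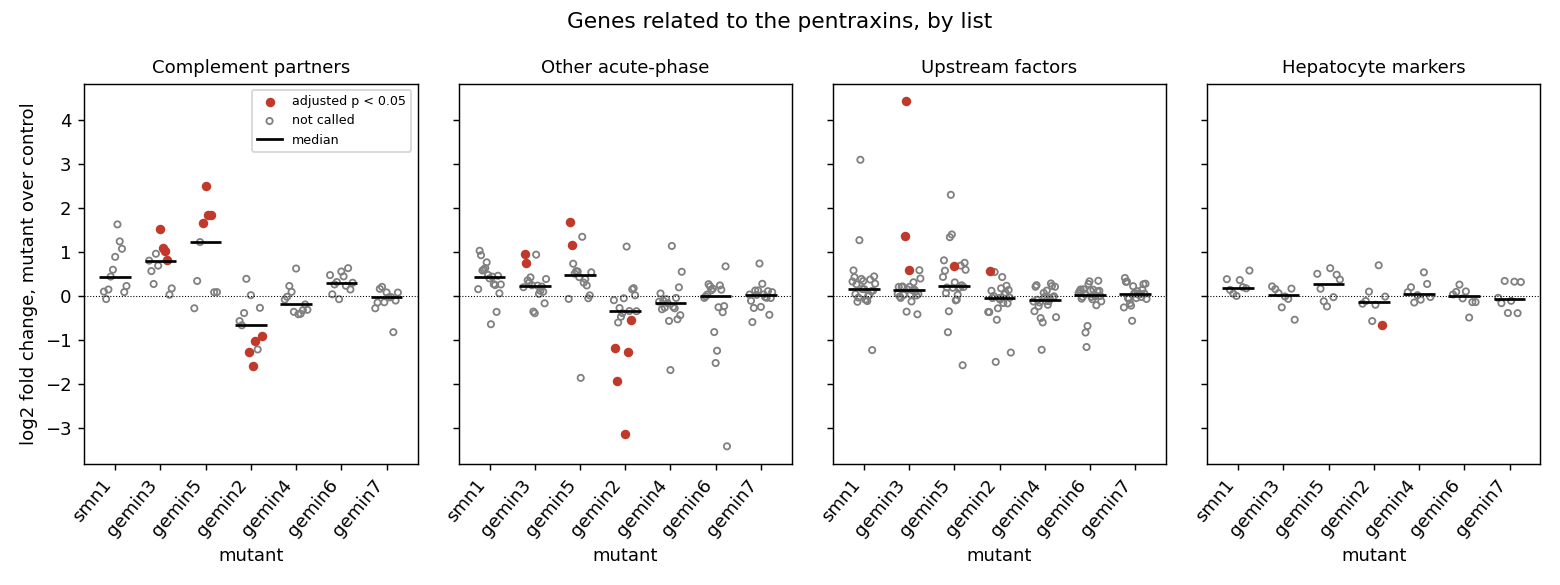
Log2 fold changes (mutant over control) of the listed genes in the 7 mutants; each point is a gene, filled where the adjusted p was below 0.05, and the line is the list's median. Complement partners have medians of 0.80 and 1.22 in *gemin3* and *gemin5* mutants and -0.68 in *gemin2* mutants, while the medians of the hepatocyte markers lie between -0.15 and 0.26.

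These calls also depended on single libraries. In all, 9 listed genes were called in *gemin3* mutants, 7 in *gemin5* mutants and 11 in *gemin2* mutants. With the replicate number as a block it was 14 in *gemin3* mutants, 32 in *gemin5* mutants and 7 in *smn1* mutants, where 0 were called without it. Over all genes the block raised the calls from 237 to 480, from 205 to 1700 and from 21 to 350 in these mutants. The 7 calls in *gemin5* mutants fell to 0 without sibling library 2, to 1 without sibling library 1 and to 2 without mutant library 1 or 2. The 9 in *gemin3* mutants fell to 3 without mutant library 3 and to 5 without mutant library 1 or 2 or sibling library 2. The 11 in *gemin2* mutants fell to 1 and 4 without mutant library 2 and 1, and to 6 and 7 without shared wild-type library 2 and 3. Calls over all genes fell as well, to 30 in *gemin5* mutants without sibling library 2. They fell to 65 in *gemin3* mutants without mutant library 3 and to 324 in *gemin2* mutants without mutant library 2.

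Markers of hepatocytes, the source of pentraxins in mammals, were examined next. Of the 8 hepatocyte markers 0 were called in 6 of the mutants by edgeR at an adjusted p below 0.05, where 11 of 48 tests had an unadjusted p below 0.05 and DESeq2 called 2, and in *gemin2* mutants *tfa* (transferrin) fell by 0.67 (SE 0.11, adjusted p = 0.014) on the log2 scale. *fabp10a*, the liver fatty acid binding protein, stood at 1798 ± 171 TPM in *gemin2* mutants, against 1861 ± 359 TPM in the shared wild type, and at 1714 ± 85.2 TPM in *gemin5* mutants, against 1783 ± 281 TPM in siblings. The summed level of the 8 markers was 7592 ± 584 TPM in *gemin2* mutants, against 8205 ± 556 TPM in the shared wild type, and 7528 ± 419 TPM in *gemin5* mutants, against 7238 ± 626 TPM in siblings. In *gemin3* mutants it was 9012 ± 179 TPM, against 8130 ± 479 TPM in siblings, without overlap (SD, n = 3 each). None of the 8 markers was at 0 in any library.

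Some markers of other cells were called as well. *lyz*, of neutrophils and macrophages, fell in *smn1* mutants to 23.2 ± 7.80 TPM, against 88.9 ± 8.49 TPM in siblings (adjusted p = 0.045), and in *gemin2* mutants to 29.1 ± 4.91 TPM, against 79.8 ± 16.6 TPM in the shared wild type (adjusted p = 0.0074). *cryaa*, of the lens, fell in *gemin3* mutants to 45.0 ± 6.73 TPM, against 164.6 ± 53.0 TPM in siblings, and in *gemin5* mutants to 51.8 ± 14.4 TPM, against 154.0 ± 13.7 TPM in siblings (adjusted p = 0.0095 and 0.017; SD, n = 3 each). The median log2 fold change of the 2 matched neutrophil markers was -1.47 in *smn1*, -0.66 in *gemin3*, -1.17 in *gemin5* and -0.99 in *gemin2* mutants. It was -0.38, 0.13 and -0.03 in *gemin4*, *gemin6* and *gemin7* mutants. The median of the 2 matched macrophage markers, *marco* and *csf1ra*, was 0.19 in *smn1*, 0.63 in *gemin3*, 0.44 in *gemin5* and -0.26 in *gemin2* mutants. In *gemin4*, *gemin6* and *gemin7* mutants it was 0.03, 0.005 and 0.01. Neither macrophage marker was called by edgeR in any mutant, where 5 of 14 tests had an unadjusted p below 0.05 and DESeq2 called 2. Summed over the 2 matched neutrophil markers the level ran from 24.6 to 148.6 TPM over the 33 libraries, and *cryaa*, the single lens marker, ran from 31.1 to 222.3 TPM, with none at 0. In *gemin2* mutants *fabp6* of enterocytes and *ela2* of the exocrine pancreas rose by 0.88 and 0.65 on the log2 scale. *fabp6* was the only 1 of the 3 tested enterocyte markers above 0 (median log2 fold change -0.04). All 3 exocrine pancreas markers were above 0 (median 0.23). The part of all these markers in the pentraxin levels was not tested.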

How the data were processed

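RNA-Seq of 33 libraries was analysed, and 15 small RNA libraries were not used. Reads were paired, from a HiSeq or, with longer reads in the *gemin3* family, a NovaSeq instrument. The authors mapped them to GRCz10 (Ensembl annotation without pseudogenes) with STAR and estimated expression with RSEM. The submitters' processing notes name Trimmomatic 0.36, STAR 2.5.4a, HISAT2 2.2.1.0 and RSEM. The deposited values used are RSEM expected counts, which need not be whole, TPM, and the posterior SD of each count, all from the authors' files. Symbols came from the gene table, for 26982 of the 34707 identifiers. Libraries of a group were checked for duplicates, and the least different had a chi-square of 9.76 per degree of freedom. Counting is most precise for deep libraries, and *apcs* in *gemin2* mutants rests on few counts.

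Expected counts were rounded and the 6 libraries of each mutant and its control were fitted in edgeR 4.0.16 (R 4.3.3; filterByExpr, TMM, quasi-likelihood test), and p-values were adjusted by Benjamini-Hochberg over every gene tested, with a threshold of 0.05. The wild-type groups were fitted by an F test over 12 libraries, which is not reported because these libraries are the controls of the comparisons that chose the members. SEs of each mutant's fold changes were obtained by dividing the log2 fold change by the root of F. Procedures were tested on simulated data. Samples were grouped by their labels. All members are named, with up to 4 genes of each list, those called in the most mutants, others that define a step, and the 5 genes most alike. The members and lists were chosen with earlier results of these data known. Alternatives were DESeq2 1.42.0, RLE normalization, no filter, a replicate block, 1 fit of all libraries, other controls, a pseudocount of 0.1 in place of 1, and leaving out libraries. Deviations from the group means of same-numbered libraries correlated at 0.543 to 0.721 in the *smn1* family, 0.243 to 0.471 in the *gemin3* family and 0.438 to 0.757 in the *gemin5* family, all above 0.1, so the pairing rests on the data, not on a label. In the other mutants these correlations ran from -0.224 to 0.359, and in none of those mutants were all above 0.1.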

Additional observations from a re-analysis of the deposited data

Results flagged for a closer look

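In pairs of mutants, all libraries of one lay above their control and all libraries of the other below it. None of these differences was itself tested. For *apcs*, the log2 fold change in *gemin3* mutants exceeded that in *gemin2* mutants by 7.15, and that in *gemin5* mutants exceeded it by 9.24. For *crp5*, *gemin3* mutants exceeded *gemin2* mutants by 4.0 and *gemin4* mutants by 2.86, and *gemin5* mutants exceeded *gemin2* mutants by 5.86 and *gemin4* mutants by 4.72. For *crp3*, *gemin3*, *gemin5* and *gemin6* mutants exceeded *gemin2* mutants by 2.68, 3.03 and 2.93, and for *crp1*, *gemin6* mutants exceeded *gemin2* mutants by 0.46. The *gemin2*, *gemin4* and *gemin6* mutants share their control libraries. Against the *gemin4* family's own sibling library, *crp5* in *gemin4* mutants had a log2 ratio of -0.17, in place of the log2 fold change of -1.20 against the shared control.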

How the results depend on the processing

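Alternative log2 fold changes of members numbered 385, without the ratios to a family's own sibling library. Of the 385, 370 kept their sign and 15 did not. The 15 belonged to *crp1* in *smn1*, *gemin3* and *gemin4* mutants, *apcs* in *gemin6* mutants, and *apcs*, *crp2* and *crp5* in *gemin7* mutants, and none was a called member. In 1 fit of all 33 libraries, called members in *gemin3* mutants fell to 0, and called listed genes came to 4 in *smn1*, 3 in *gemin3* and 1 in *gemin6* mutants. Over all genes that fit called 170, 229 and 14 in these mutants. DESeq2 called 4, 14, 16 and 1 listed genes in *smn1*, *gemin3*, *gemin5* and *gemin6* mutants, among 177, 732, 593 and 22 genes in all. With the replicate block, 4 members in *gemin5* mutants and 7, 14 and 32 listed genes in *smn1*, *gemin3* and *gemin5* mutants were called. Over all genes the block gave 350, 480 and 1700 calls in *smn1*, *gemin3* and *gemin5* mutants. It changed no other count of called members or listed genes in the mutants by over 1.5 times. The replicate numbers do not pair the libraries of the mutants with a shared control. Against the family's own sibling library, the median log2 fold change of the members was 0.17 in *gemin4* mutants (-1.12 against the shared control) and 0.094 in *gemin6* mutants (0.74). There *apcs*, *crp2* and *crp3* in *gemin4* mutants had log2 ratios of 0.51, 0.47 and 0.17, against -1.71, -1.12 and -0.92 with the shared control. *apcs* in *gemin7* mutants had -0.69, against 0.08. *crp1* in *gemin4* and *apcs* in *gemin6* mutants, which hardly differed from either control, changed sign as well. Where no construction shows it, the cause was not tested.

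Leaving out 1 library at a time, called members numbered 2 to 4 in *gemin3*, 0 to 2 in *gemin5* and 0 to 4 in *gemin2* mutants. Called listed genes numbered 0 to 1 in *smn1*, 3 to 13 in *gemin3*, 0 to 7 in *gemin5* and 1 to 8 in *gemin2* mutants. Calls over all genes ranged from 0 to 46, 58 to 611, 30 to 134 and 324 to 932 in these mutants. Fewer libraries leave less power by construction. Low counts limit *apcs* in *gemin2* mutants, *crp6* and *crp7*, and a very low sibling level limits the fold change of *il11b* in *gemin3* mutants.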
